A study of Mus musculus with 12 samples.

Results

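Voltage-gated ion channels and fast neurotransmitter receptors were described in N2a cells, a mouse neuroblastoma line, across 3 groups of libraries. The genes were chosen by a rule on their names from those that both deposited expression tables list. The channel genes were those of sodium (Scn), calcium (Cacn), potassium (Kcn) and Hcn channels. The receptor genes were those of AMPA, kainate, NMDA and metabotropic glutamate, GABA-A and nicotinic acetylcholine receptors and of glycine receptor alpha subunits (Glra). The rule found 206 genes among 24318 gene rows and used no measured value. The genes include accessory subunits, and 5 are noncoding or antisense transcripts that carry the name of a channel gene.

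The groups were N2a cells given brain-derived extracellular vesicles of the SE group (SE-BDEV), cells given brain-derived vesicles of the CON group (CON-BDEV) and cells given vehicle (Vehicle), with 4 libraries each. Extracellular vesicles are membrane-bound particles that cells shed, and SE is status epilepticus, a prolonged seizure, in the title of the series. What CON stands for is not spelled out in the labels, which also give no dose, exposure time or source animal for the vesicles. N2a is a tumour line of neural crest type, so its channel repertoire need not be that of the brain neurons in which these genes are linked to epilepsy. The labels do not state whether the 4 libraries of a group were grown or treated separately. The p-values may therefore reflect technical spread alone. In the numbered library names SE-BDEV and CON-BDEV libraries alternate, and all Vehicle libraries come after them. Whether the libraries were handled in that order is not given. A difference from Vehicle therefore cannot be told apart from an effect of library order.

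Sodium channels carry the rising phase of the action potential, potassium channels return the membrane to rest and set how readily a neuron fires, and calcium channels couple the electrical signal to transmitter release. A pore-forming subunit usually works with accessory subunits that bring it to the membrane and tune its gating. Ionotropic receptors open on binding glutamate, GABA, glycine or acetylcholine and need a fitting set of subunits to do so. Loss or gain of function in many of these genes is a known cause of inherited epilepsy.

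Expression is given in FPKM, the number of fragments relative to transcript length and to the depth of the library, as the authors deposited it. The unit is scaled to transcript length, so that levels can be set side by side between genes. Means are given ± SD over the 4 libraries of a group. Estimated depth was 13000000 to 15700000 fragments per SE-BDEV library, 12900000 to 14500000 per CON-BDEV library and 15200000 to 16600000 per Vehicle library. SE-BDEV replicates 2 and 3 stood apart from the other libraries on the first principal components. Of 10 markers of sympathetic neuroblasts, the cell type that N2a resembles, 9 had at least 1 FPKM. Their summed level was 629.6 to 660.6 FPKM in SE-BDEV, 646.7 to 683.3 FPKM in CON-BDEV and 584.3 to 618.3 FPKM in Vehicle libraries, so both vesicle groups lay above Vehicle. Of 7 forebrain neuron markers, 2 reached 1 FPKM, Camk2a among them, and Neurod6 was listed at 0. Of 5 astrocyte markers none reached 1 FPKM in the mean of 12 libraries and Gjb6 was listed at 0, and their sum, nearly all of it Aldh1l1, was 0.744 to 0.986 FPKM in SE-BDEV, 0.640 to 0.849 FPKM in CON-BDEV and 0.990 to 1.14 FPKM in Vehicle libraries. Gfap, at a low level, was instead highest in SE-BDEV (0.0518 to 0.133 FPKM), against 0 to 0.0265 FPKM in CON-BDEV and 0 to 0.0254 FPKM in Vehicle. At least 1 FPKM was reached by 2 of 5 oligodendrocyte, 1 of 5 microglia and 1 of 4 endothelium markers. Of 4 red blood cell and choroid plexus markers 1 reached it.

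N2a cells expressed a minority of the channel and receptor genes. At a group mean of at least 1 FPKM, 54 genes were expressed in SE-BDEV libraries, 53 in CON-BDEV libraries and 52 in Vehicle libraries. By the mean of all 12 libraries, 54 of the 206 genes (26.2%) had at least 1 FPKM, against 46.5% of all gene rows. Another 27 genes lay between 0.1 and 1 FPKM, 97 lay above 0 but under 0.1 FPKM, and 28 (13.6%, against 26.9% of all rows) were listed at 0 in every library. A value of 0 can be a failed estimate. Of 94 genes looked up by the names of housekeeping genes, 1 was at 0 throughout. It was Rpl10l, which matched by name and is not itself a housekeeping gene. The channel and receptor genes that were expressed had a median Vehicle level of 4.93 FPKM, against 15.4 FPKM for all expressed rows.

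**Figure D1:**
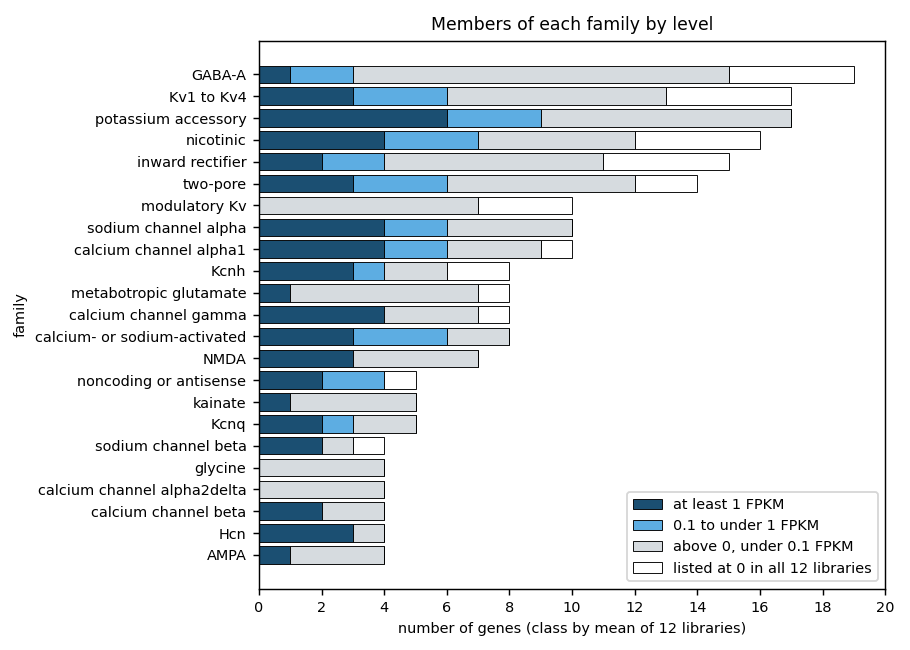
Number of genes (horizontal axis) in each channel or receptor family (vertical axis), with bar segments for the class of the mean FPKM over 12 libraries. Potassium channel accessory subunits had 6 of 17 genes at 1 FPKM or more. The glycine receptor alpha, calcium channel alpha2delta and modulatory Kv families had none.

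The sodium channels were represented by 4 of 10 alpha subunits, the pore-forming chains. Scn8a, a main channel of the axon initial segment, had 6.38, 7.11, 6.58 and 6.78 FPKM in the 4 SE-BDEV libraries, 6.52, 6.73, 7.04 and 7.97 FPKM in the 4 CON-BDEV libraries, and 6.62, 6.73, 6.62 and 6.01 FPKM in the 4 Vehicle libraries. The groups overlapped, and Vehicle replicate 4 was the lowest of the 12 libraries. Scn9a, a channel of peripheral neurons, averaged 6.42 ± 0.0875 FPKM in SE-BDEV, 6.22 ± 0.0941 FPKM in CON-BDEV and 6.32 ± 0.233 FPKM in Vehicle. Scn3a averaged 2.81 ± 0.254 FPKM in SE-BDEV, 2.79 ± 0.244 FPKM in CON-BDEV and 3.05 ± 0.140 FPKM in Vehicle, and Scn2a1 averaged 2.65 ± 0.207 FPKM in SE-BDEV, 2.82 ± 0.0729 FPKM in CON-BDEV and 2.98 ± 0.210 FPKM in Vehicle. Scn1a, the gene whose loss causes Dravet syndrome, averaged 0.208 ± 0.0431 FPKM in SE-BDEV, 0.272 ± 0.0667 FPKM in CON-BDEV and 0.333 ± 0.0692 FPKM in Vehicle, and its range in SE-BDEV (0.145 to 0.241 FPKM) lay below that in Vehicle (0.261 to 0.393 FPKM). Scn1a was too low to enter the test and was not called with a floor of 0.1 FPKM. Of the 4 beta subunits, Scn3b had 15.5, 16.4, 15.3 and 14.4 FPKM in SE-BDEV replicates 1 to 4, 15.3, 14.3, 14.9 and 15.9 FPKM in CON-BDEV replicates 1 to 4, and 14.1, 14.3, 14.5 and 14.2 FPKM in Vehicle replicates 1 to 4. In each vesicle group 3 of 4 libraries lay above every Vehicle library.

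Among calcium channels, 4 of 10 alpha1 subunits, which form the pore, reached 1 FPKM. Cacna1b, the pore of the N-type channel that triggers transmitter release, led them and is described with the genes that changed. Cacna1c (L-type) averaged 6.97 ± 0.323 FPKM in SE-BDEV, 6.999 ± 0.262 FPKM in CON-BDEV and 6.30 ± 0.0850 FPKM in Vehicle. The T-type subunits Cacna1g and Cacna1i, which open at voltages near rest, averaged 6.28 ± 0.794 FPKM in SE-BDEV, 6.65 ± 0.154 FPKM in CON-BDEV and 6.26 ± 0.202 FPKM in Vehicle and 2.85 ± 0.189 FPKM in SE-BDEV, 2.94 ± 0.0927 FPKM in CON-BDEV and 3.02 ± 0.134 FPKM in Vehicle. The P/Q-type subunit Cacna1a, mutated in mice with absence seizures, averaged 0.473 ± 0.0430 FPKM in SE-BDEV, 0.508 ± 0.0865 FPKM in CON-BDEV and 0.445 ± 0.00800 FPKM in Vehicle.

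Beta subunits, which take the pore to the membrane, were expressed as 2 of 4 genes, Cacnb3 above and Cacnb1 near the level of Cacna1b. Cacnb3 had 27.1, 25.8, 28.8 and 27.5 FPKM in the 4 SE-BDEV libraries, 25.8, 28.9, 29.0 and 27.6 FPKM in the 4 CON-BDEV libraries, and 23.0, 26.0, 25.4 and 25.1 FPKM in the 4 Vehicle libraries. In each vesicle group 3 of 4 libraries exceeded every Vehicle library, and the lowest overlapped the Vehicle range. Cacnb1 had 10.2, 9.998, 8.57 and 10.1 FPKM in SE-BDEV replicates 1 to 4, 11.6, 10.96, 10.2 and 10.1 FPKM in CON-BDEV replicates 1 to 4, and 10.5, 8.90, 9.72 and 10.2 FPKM in Vehicle replicates 1 to 4. SE-BDEV replicate 3 was the lowest library, and the groups overlapped.

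The alpha2delta subunits, which include the targets of the antiseizure drugs gabapentin and pregabalin, were close to the limit of detection. All 4 had group means under 0.05 FPKM in each group. Cacna2d2, the highest in Vehicle, had 0.0479, 0.0617, 0.0130 and 0.0326 FPKM in the 4 SE-BDEV libraries, 0.0234, 0.0264, 0.0364 and 0.0123 FPKM in the 4 CON-BDEV libraries, and 0.0609, 0.0630, 0.0321 and 0.0113 FPKM in the 4 Vehicle libraries. These values stand for an estimated 0.984 to 5.89 fragments per library, and no group stood apart.

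The gamma subunit family, whose members Cacng3, Cacng4, Cacng7 and Cacng8 bind AMPA receptors, held the gene of highest Vehicle level of all 206. Cacng7 had 39.4, 37.1, 43.9 and 47.1 FPKM in SE-BDEV replicates 1 to 4, 41.5, 39.8, 41.4 and 41.8 FPKM in CON-BDEV replicates 1 to 4, and 39.8, 39.6, 41.7 and 39.2 FPKM in Vehicle replicates 1 to 4. Its SE-BDEV libraries spread on both sides of the Vehicle range. Cacng3 had 21.6, 35.7, 20.6 and 25.6 FPKM in the 4 SE-BDEV libraries, 20.9, 29.5, 24.3 and 27.4 FPKM in the 4 CON-BDEV libraries, and 28.3, 26.0, 26.9 and 25.8 FPKM in the 4 Vehicle libraries. SE-BDEV replicate 2 was the highest and SE-BDEV replicate 3 the lowest of all 12 libraries, and CON-BDEV replicate 2 was the next highest. Cacng8 averaged 4.68 ± 1.48 FPKM in SE-BDEV, 4.93 ± 0.924 FPKM in CON-BDEV and 4.77 ± 0.752 FPKM in Vehicle and Cacng4 3.23 ± 0.802 FPKM in SE-BDEV, 2.97 ± 0.193 FPKM in CON-BDEV and 3.11 ± 0.361 FPKM in Vehicle. Cacng7, Cacng8 and Cacng6 lie side by side on chromosome 7, with Vehicle levels of 40.1, 4.77 and 0.0822 FPKM.

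Of the 17 Kv1 to Kv4 pore genes, 3 were expressed. Among them Kcnc1, a fast-spiking Kv3 channel, averaged 1.33 ± 0.188 FPKM in SE-BDEV, 1.37 ± 0.131 FPKM in CON-BDEV and 1.40 ± 0.157 FPKM in Vehicle. No Kv1 (Kcna) gene passed 0.2 FPKM in Vehicle, where Kcna7 was highest at 0.185 FPKM. The 10 modulatory Kv genes, which are silent alone and join other pores, were all under 0.1 FPKM. Their highest, Kcns2, had 0.0393, 0.0673, 0.0142 and 0.0440 FPKM in SE-BDEV replicates 1 to 4, 0.0511, 0.0144, 0.0132 and 0.0267 FPKM in CON-BDEV replicates 1 to 4, and 0.0111, 0.0114, 0.0350 and 0 FPKM in Vehicle replicates 1 to 4.

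The Kcnh family, relatives of the ether-à-go-go channel, included Kcnh2, the hERG channel that carries the rapid repolarizing current of the heart. Kcnh2 had 31.2, 39.9, 35.0 and 34.8 FPKM in the 4 SE-BDEV libraries, 32.1, 37.1, 33.9 and 35.2 FPKM in the 4 CON-BDEV libraries, and 30.4, 29.6, 30.5 and 31.4 FPKM in the 4 Vehicle libraries. All 4 CON-BDEV libraries and 3 of 4 SE-BDEV libraries lay above every Vehicle library, and the differences did not pass the test (log2 fold change 0.18 (standard error 0.04, adjusted p = 0.0587) for CON-BDEV and 0.20 (standard error 0.06, adjusted p = 0.179) for SE-BDEV). Kcnh4 averaged 5.88 ± 0.618 FPKM in SE-BDEV, 5.92 ± 0.133 FPKM in CON-BDEV and 6.24 ± 0.204 FPKM in Vehicle, and Kcnh6 averaged 1.26 ± 0.203 FPKM in SE-BDEV, 1.40 ± 0.277 FPKM in CON-BDEV and 0.825 ± 0.166 FPKM in Vehicle.

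The Kcnq genes encode subunits of slow potassium channels that hold back repetitive firing. Kcnq5 averaged 1.91 ± 0.178 FPKM in SE-BDEV, 1.92 ± 0.199 FPKM in CON-BDEV and 2.14 ± 0.117 FPKM in Vehicle. Kcnq3 averaged 0.0121 FPKM in SE-BDEV, 0.0180 FPKM in CON-BDEV and 0.0166 FPKM in Vehicle, and was above 0 in 5 of 12 libraries.

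Inward rectifiers help to set the resting potential. Kcnj12 had 4.14, 3.82, 4.03 and 3.72 FPKM in SE-BDEV replicates 1 to 4, 3.58, 4.23, 3.74 and 3.71 FPKM in CON-BDEV replicates 1 to 4, and 4.03, 4.26, 3.68 and 3.95 FPKM in Vehicle replicates 1 to 4, with overlapping groups. Kcnj9, a subunit of the channel that G proteins open, had 1.10, 1.25, 0.938 and 1.11 FPKM in the 4 SE-BDEV libraries, 1.05, 1.71, 1.47 and 1.42 FPKM in the 4 CON-BDEV libraries, and 1.36, 1.121, 1.33 and 0.908 FPKM in the 4 Vehicle libraries. CON-BDEV replicates 2, 3 and 4 were higher than every other library. Of the 14 tandem pore domain genes, which carry background potassium current, Kcnk3 was highest, and Kcnk5 and Kcnk1 averaged 1.06 ± 0.120 FPKM in SE-BDEV, 1.20 ± 0.191 FPKM in CON-BDEV and 1.37 ± 0.125 FPKM in Vehicle and 1.14 ± 0.227 FPKM in SE-BDEV, 0.938 ± 0.0945 FPKM in CON-BDEV and 1.24 ± 0.171 FPKM in Vehicle. Calcium-activated channels were led by Kcnn3, a small-conductance channel that follows a spike with hyperpolarization. It had 3.90, 3.77, 3.40 and 4.01 FPKM in SE-BDEV replicates 1 to 4, 3.63, 3.499, 3.93 and 3.42 FPKM in CON-BDEV replicates 1 to 4, and 3.89, 3.32, 3.45 and 3.32 FPKM in Vehicle replicates 1 to 4, again with overlap. The big-conductance pore Kcnma1 averaged 1.24 ± 0.291 FPKM in SE-BDEV, 1.27 ± 0.0689 FPKM in CON-BDEV and 1.32 ± 0.0957 FPKM in Vehicle and its beta subunits Kcnmb4 and Kcnmb2 4.46 ± 1.06 FPKM in SE-BDEV, 5.16 ± 1.34 FPKM in CON-BDEV and 4.70 ± 0.511 FPKM in Vehicle and 2.00 ± 0.209 FPKM in SE-BDEV, 2.34 ± 0.369 FPKM in CON-BDEV and 1.68 ± 0.256 FPKM in Vehicle. Reads of Kcnmb4 may be shared with Kcnmb4os1 and Kcnmb4os2, which are listed at the same locus.

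The Kv1 beta subunits were expressed although no Kv1 pore was. Kcnab1 had 29.2, 27.0, 23.7 and 27.6 FPKM in the 4 SE-BDEV libraries, 26.4, 28.4, 25.5 and 27.2 FPKM in the 4 CON-BDEV libraries, and 27.3, 26.4, 27.0 and 25.6 FPKM in the 4 Vehicle libraries. Kcnab2, which like Kcnab1 attaches to Kv1 channels inside the cell, had 15.9, 15.5, 15.5 and 15.4 FPKM in SE-BDEV replicates 1 to 4, 15.4, 14.8, 14.3 and 14.5 FPKM in CON-BDEV replicates 1 to 4, and 17.0, 15.2, 15.4 and 15.3 FPKM in Vehicle replicates 1 to 4. Vehicle replicate 1 stood above all other libraries in Kcnab2, and CON-BDEV replicates 2 to 4 lay under the Vehicle range. Kcnab3 averaged 2.37 ± 0.530 FPKM in SE-BDEV, 2.37 ± 0.221 FPKM in CON-BDEV and 2.1998 ± 0.282 FPKM in Vehicle. The noncoding genes A330015K06Rik and A730090N16Rik overlap Kcnab1, and whether their reads were kept apart is not given in the sources used here.

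The Hcn genes, whose channels pass a depolarizing current on hyperpolarization, were expressed at 1 FPKM or more in 3 of 4 cases. Hcn2, lost in a mouse model of absence seizures, had 25.9, 21.1, 21.6 and 23.6 FPKM in the 4 SE-BDEV libraries, 24.2, 21.9, 23.1 and 24.3 FPKM in the 4 CON-BDEV libraries, and 22.9, 22.2, 22.002 and 22.1 FPKM in the 4 Vehicle libraries. The vesicle groups reached both above and below the narrow Vehicle range. Hcn3 averaged 10.3 ± 0.345 FPKM in SE-BDEV, 10.01 ± 0.669 FPKM in CON-BDEV and 9.62 ± 0.352 FPKM in Vehicle and Hcn4 1.74 ± 0.365 FPKM in SE-BDEV, 1.87 ± 0.329 FPKM in CON-BDEV and 1.71 ± 0.194 FPKM in Vehicle.

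**Figure D2:**
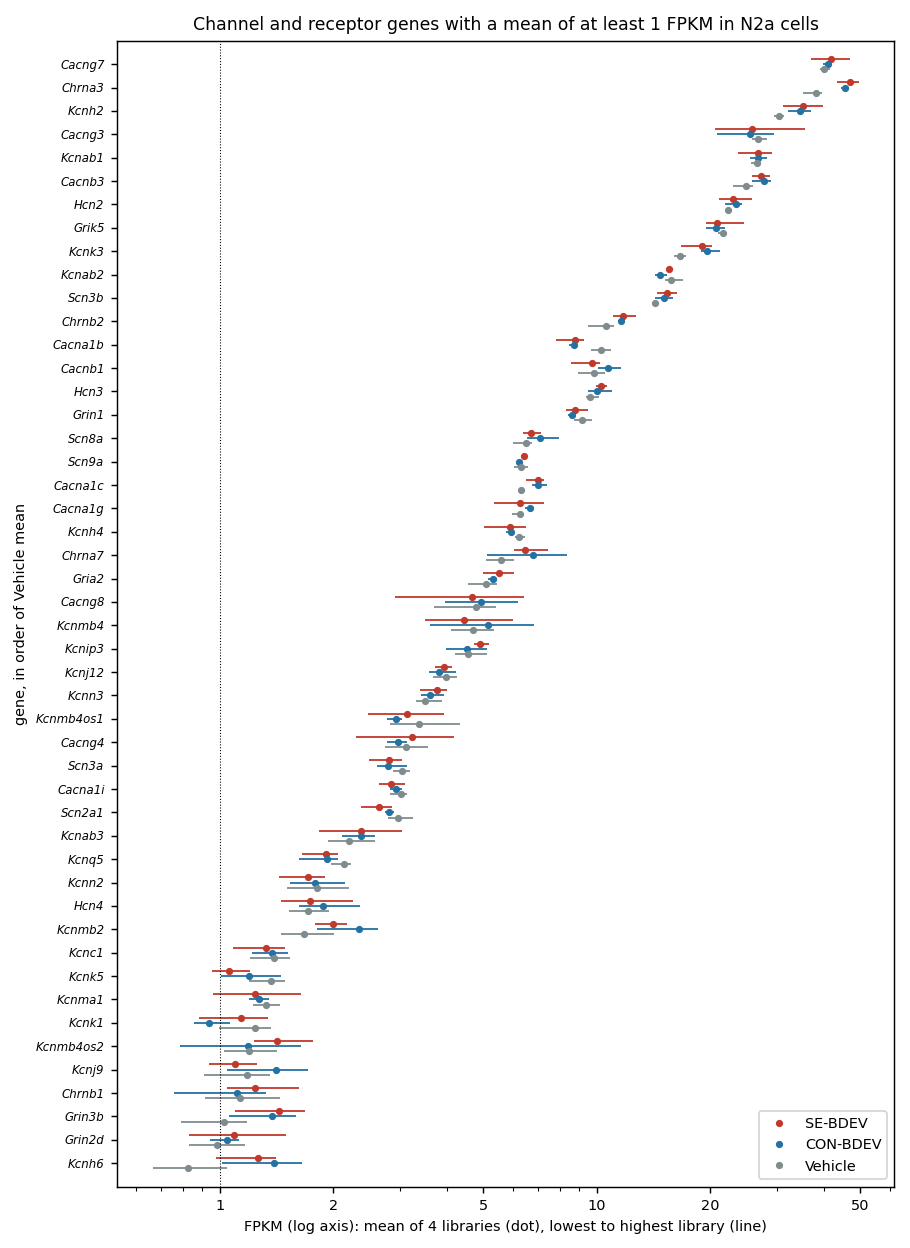
Group mean FPKM (dots) with the lowest and highest of 4 libraries (lines), on a log axis, for 48 of the 54 channel and receptor genes with a 12-library mean of at least 1 FPKM, ordered down the page by Vehicle mean. Group means run from 0.825 FPKM (Kcnh6 in Vehicle) to 46.9 FPKM (Chrna3 in SE-BDEV), and the groups overlap for most genes.

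Each class of glutamate receptor looked up was carried by 1 subunit or a few. Gria2, the AMPA subunit that blocks calcium entry, had 5.21, 5.82, 4.99 and 6.05 FPKM in SE-BDEV replicates 1 to 4, 5.27, 5.16, 5.35 and 5.45 FPKM in CON-BDEV replicates 1 to 4, and 5.45, 5.38, 4.93 and 4.57 FPKM in Vehicle replicates 1 to 4. The groups overlapped, and the other AMPA subunits had Vehicle means under 0.01 FPKM. The kainate subunit Grik5 does not form a channel alone. It had 19.4, 19.7, 24.5 and 19.9 FPKM in the 4 SE-BDEV libraries, 20.7, 19.5, 20.9 and 21.9 FPKM in the 4 CON-BDEV libraries, and 21.5, 21.8, 21.03 and 22.1 FPKM in the 4 Vehicle libraries. SE-BDEV replicate 3 stood above all libraries, while the other SE-BDEV libraries were below the Vehicle range. No other kainate subunit reached 0.1 FPKM in Vehicle.

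Grin1, the obligatory NMDA receptor subunit, had 8.85, 8.28, 8.50 and 9.49 FPKM in SE-BDEV replicates 1 to 4, 8.59, 8.68, 8.66 and 8.40 FPKM in CON-BDEV replicates 1 to 4, and 9.70, 8.71, 8.76 and 9.50 FPKM in Vehicle replicates 1 to 4. All 4 CON-BDEV libraries were below every Vehicle library by a small margin, and the SE-BDEV libraries overlapped Vehicle. Its partners Grin2d and Grin3b averaged 1.10 ± 0.302 FPKM in SE-BDEV, 1.05 ± 0.0771 FPKM in CON-BDEV and 0.984 ± 0.152 FPKM in Vehicle and 1.43 ± 0.247 FPKM in SE-BDEV, 1.38 ± 0.249 FPKM in CON-BDEV and 1.03 ± 0.182 FPKM in Vehicle, while the partners of the adult forebrain, Grin2a and Grin2b, were at 0.00945 and 0 FPKM in Vehicle. Grin1 shares its locus with Grin1os and Lrrc26, and Grin3b with Tmem259.

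GABA-A receptors are the main fast inhibitory receptors of the brain. The subunit genes Gabra5 and Gabrg3 were at 0.0735 and 0 FPKM in Vehicle. At the estimated depths 1 fragment of Gabrg3 would be worth 0.00617 to 0.00794 FPKM, so a level under that would not be seen in a library. No alpha subunit reached 0.1 FPKM in any group mean, although most GABA-A receptors of the brain contain one. Gabrd averaged 0.242 ± 0.125 FPKM in SE-BDEV, 0.281 ± 0.116 FPKM in CON-BDEV and 0.189 ± 0.123 FPKM in Vehicle. All 4 glycine receptor alpha genes were under 0.1 FPKM, and other glycine receptor subunits were not looked up. The highest of these alpha genes in Vehicle was Glra3. Glra3 had 0, 0, 0 and 0 FPKM in the 4 SE-BDEV libraries and in the 4 CON-BDEV libraries. In the 4 Vehicle libraries it had 0.0897, 0.0461, 0 and 0 FPKM. It was above 0 in Vehicle replicates 1 and 2 only.

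The nicotinic family held the receptor subunit of highest level. Chrna3, the alpha subunit of the ganglionic receptor, ranked 2 of the 206 genes in Vehicle. Chrnb2 averaged 11.7 ± 0.740 FPKM in SE-BDEV, 11.6 ± 0.190 FPKM in CON-BDEV and 10.6 ± 0.742 FPKM in Vehicle, with all CON-BDEV libraries above Vehicle. Its locus overlaps Adar, so its reads are uncertain. Chrna7, which forms a receptor by itself, averaged 6.46 ± 0.659 FPKM in SE-BDEV, 6.76 ± 1.32 FPKM in CON-BDEV and 5.57 ± 0.388 FPKM in Vehicle, with all SE-BDEV libraries above Vehicle. Chrna5 and Chrnb4, the neighbours of Chrna3 on chromosome 9 and its partners in ganglia, averaged 0.756 ± 0.238 FPKM in SE-BDEV, 0.716 ± 0.0795 FPKM in CON-BDEV and 0.769 ± 0.155 FPKM in Vehicle and 0.307 ± 0.101 FPKM in SE-BDEV, 0.378 ± 0.0722 FPKM in CON-BDEV and 0.175 ± 0.105 FPKM in Vehicle. The 3 genes follow each other with gaps of 3563 and 1596 bases, at chr9:54828686-54855586, chr9:54859149-54874366 and chr9:54875962-54896351 on mm9.

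**Figure D3:**
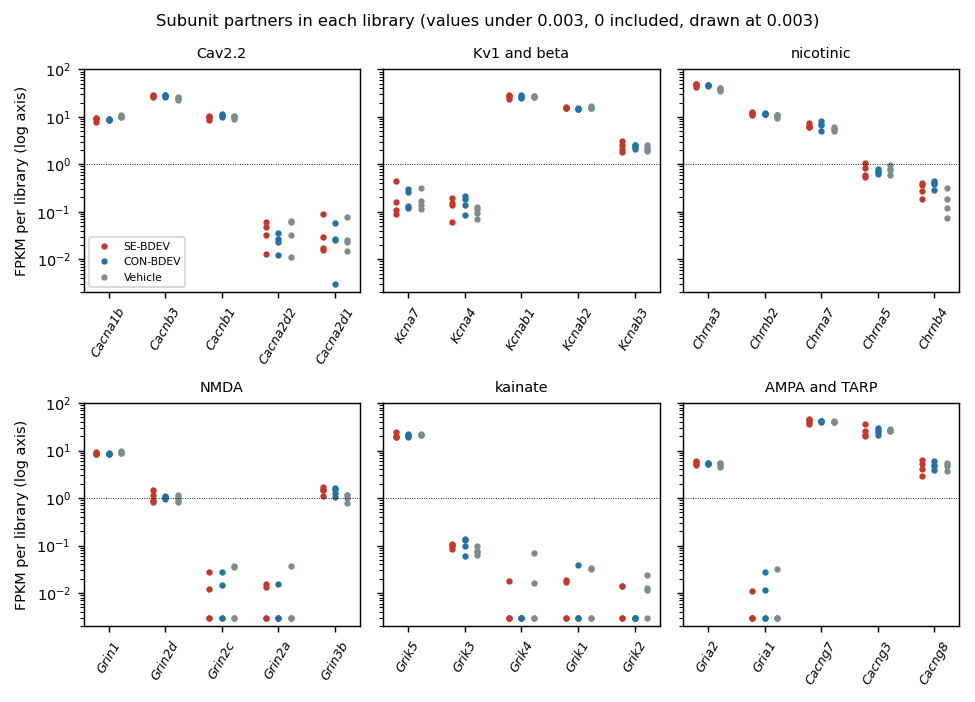
FPKM in each library (dots, log axis, with values under 0.003 drawn at 0.003) for subunits that assemble with each other, in panels by channel or receptor. In each panel at least 1 subunit sits above the dotted line at 1 FPKM in every library, while partners such as the alpha2delta, Kv1, Grin2a and Gria1 subunits lie under it.

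The cells of the vesicle groups were next compared with Vehicle, each within its own table, by limma on log2(FPKM + 1), with the filter that a gene's mean be at least 1 FPKM. That scale understates the change of low genes. Of the 206 channel and receptor genes 54 passed the filter in each comparison and 152 were not tested. In bulk RNA, fewer cells that express a gene and less RNA per cell cannot be told apart.

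Few channel and receptor genes differed from Vehicle, and the differences were small. With SE-BDEVs 1 gene rose, Chrna3, and 0 fell. That is 1.85% of those tested, while 0.919% of all tested genes were called, 0.292% rising and 0.628% falling. With CON-BDEVs 2 rose, Chrna3 and Kcnk3, and 1 fell, Cacna1b, which is 5.56%, while 2.84% of all tested genes were called, 1.02% rising and 1.82% falling. When both vesicle groups together were set against Vehicle in a fit of 12 libraries, these 3 genes were called in the same directions, 5.56% against 3.37% of all tested genes (1.53% rising and 1.84% falling). Without SE-BDEV replicates 2 and 3 the SE-BDEV and joint counts were again 1 and 3. The SE-BDEV count was 2 without SE-BDEV replicate 2 and 0 without any other single library. The CON-BDEV count was 6 without CON-BDEV replicate 1, 5 without CON-BDEV replicate 2 and 1 without Vehicle replicate 1, 3 or 4, and the joint count was 1 without CON-BDEV replicate 4 or Vehicle replicate 1, 3 or 4. At an unadjusted p under 0.05 there were 12 genes (22.2%) for SE-BDEV, where 14.8% of all genes passed, and 11 genes (20.4%) for CON-BDEV, where 19.1% passed. The median log2 fold change of the 54 was 0.02 for SE-BDEV and 0.04 for CON-BDEV, beside 0.01 and 0.00 for all tested genes. Both comparisons use the same Vehicle libraries, which are numbered after all vesicle libraries.

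Of the 54 genes, 4 had SE-BDEV libraries that did not overlap Vehicle (7.41%, against 10.2% of all tested genes). Cacna1c, Chrna3 and Chrna7 lay above and Cacna1b below. The locus of Cacna1c overlaps Dcp1b and 4931430N09Rik, so its reads are uncertain. For CON-BDEV there were 11 (20.4%, against 11.9% of all tested genes), with Cacna1c, Cacna1g, Chrna3, Chrnb2, Kcnh2 and Kcnk3 among those above and Cacna1b, Grin1 and Kcnh4 among those below.

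A list of 38 channel and receptor genes linked to inherited epilepsy was read as a group. Of these, 13 had at least 1 FPKM, among them Chrnb2, Grin1, Scn8a, Gria2, Scn3a, Scn2a1, Kcnc1, Kcnma1 and Grin2d. Another 4 (Cacna1h, Cacna1a, Scn1a and Gabrd) lay between 0.1 and 1 FPKM, and 21 lay lower. Among the 13 tested, limma called 0 in each of the comparisons made, where it called 0.919% of all tested genes for SE-BDEV and 2.84% for CON-BDEV against Vehicle. At an unadjusted p under 0.05 there was 1 for SE-BDEV against Vehicle (Chrnb2), which is 7.69% against 14.8% of all tested genes, 2 for CON-BDEV against Vehicle (Chrnb2 among them), which is 15.4% against 19.1%, and 0 for SE-BDEV against CON-BDEV, against 2.62%. The median log2 fold change of the 13 was 0.00 against Vehicle for SE-BDEV, where that of all tested genes was 0.01, and 0.00 for CON-BDEV, where that of all tested genes was also 0.00.

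Chrna3 had 46.6, 43.5, 49.6 and 48.0 FPKM in SE-BDEV replicates 1 to 4, 45.7, 44.4, 46.6 and 45.7 FPKM in CON-BDEV replicates 1 to 4, and 35.3, 38.0, 39.6 and 39.5 FPKM in Vehicle replicates 1 to 4. Every vesicle library was above every Vehicle library, and the vesicle groups overlapped each other. The means were 46.9 ± 2.62 FPKM in SE-BDEV, 45.6 ± 0.897 FPKM in CON-BDEV and 38.1 ± 2.02 FPKM in Vehicle, so that the mean was 23.2% higher in SE-BDEV and 19.7% higher in CON-BDEV than in Vehicle. The log2 fold change was 0.29 (standard error 0.05, adjusted p = 0.026) for SE-BDEV, 0.25 (standard error 0.04, adjusted p = 0.00732) for CON-BDEV and 0.27 (standard error 0.04, adjusted p = 0.00217) for both together by limma. In the authors' deposited table Chrna3 was also significant in both comparisons, with log2 fold changes of 0.30 (q = 0.00686) for SE-BDEV and 0.26 (q = 0.00882) for CON-BDEV. No other gene is listed at an overlapping locus. The summed neuroblast markers moved in the same direction as Chrna3 and Kcnk3, apart from Stmn2, which was at 130.7 to 146.6 FPKM in SE-BDEV, 128.2 to 146.4 FPKM in CON-BDEV and 151.5 to 162.6 FPKM in Vehicle libraries. Their part in the result was not tested. The call for SE-BDEV was lost without SE-BDEV replicate 1 (adjusted p = 0.0709), 3 (0.0688) or 4 (0.0534) and without Vehicle replicate 1 (0.0885), 2 (0.0941), 3 (0.0703) or 4 (0.0706). It was also lost without the mean-variance trend (0.0541) or without a filter on low genes (0.0805), while the CON-BDEV and joint calls held under every alternative run.

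Kcnk3, the TASK-1 channel that carries an acid-sensitive background potassium current, lies at chr5:30876359-30927643 on mm9. It had 20.1, 16.7, 20.2 and 18.8 FPKM in the 4 SE-BDEV libraries, 19.2, 18.9, 19.3 and 21.2 FPKM in the 4 CON-BDEV libraries, and 16.7, 17.3, 16.4 and 16.0 FPKM in the 4 Vehicle libraries. All CON-BDEV libraries were above all Vehicle libraries, and SE-BDEV replicate 2 alone of its group lay within the Vehicle range. The log2 fold change was 0.23 (standard error 0.04, adjusted p = 0.0208) for CON-BDEV, 0.21 (standard error 0.05, adjusted p = 0.0393) for both groups together and 0.18 (standard error 0.06, adjusted p = 0.187) for SE-BDEV, which did not pass. Without SE-BDEV replicate 2 the adjusted p for SE-BDEV was 0.0219. The noncoding gene Gm9899 is listed at the same locus. The CON-BDEV call was lost without Vehicle replicate 1 (adjusted p = 0.0616), 3 (0.0682) or 4 (0.0651) and in the fit of 12 libraries (0.0705). A replicate block also removed it (0.0802). The joint call was lost without 9 of the 12 libraries, all but SE-BDEV replicate 2 and CON-BDEV replicates 1 and 2, where the adjusted p lay between 0.0509 and 0.125. It was also lost without a filter on low genes (0.0732), without the mean-variance trend (0.053) and with a replicate block.

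Cacna1b, at chr2:24459408-24618672 on mm9, was the gene that fell. It had 8.78, 9.23, 7.80 and 9.25 FPKM in SE-BDEV replicates 1 to 4, 8.46, 8.87, 8.73 and 8.84 FPKM in CON-BDEV replicates 1 to 4, and 10.9, 9.68, 9.98 and 10.5 FPKM in Vehicle replicates 1 to 4. All vesicle libraries of both groups were below all Vehicle libraries. The means were 8.76 ± 0.679 FPKM in SE-BDEV, 8.73 ± 0.186 FPKM in CON-BDEV and 10.3 ± 0.551 FPKM in Vehicle, a difference from Vehicle of -14.7% in SE-BDEV and -15.1% in CON-BDEV. The log2 fold change was -0.21 (standard error 0.05, adjusted p = 0.0341) for CON-BDEV, -0.21 (standard error 0.05, adjusted p = 0.0307) for both groups together and -0.21 (standard error 0.06, adjusted p = 0.156) for SE-BDEV, which did not pass. No gene is listed at an overlapping locus. For CON-BDEV the adjusted p rose above 0.05 on leaving out CON-BDEV replicate 3 (0.0768) or 4 (0.082) as well as Vehicle replicate 1 (0.105), 3 (0.0777) or 4 (0.0963). It was also above 0.05 in the fit of 12 libraries (0.0842), without a filter on low genes (0.0716) and with a replicate block (0.107). The joint call ended when CON-BDEV replicate 3 (0.0513) or 4 (0.0519) was left out, or Vehicle replicate 1 (0.132), 3 (0.0708) or 4 (0.0996), and without the filter (0.0593).

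**Figure D4:**
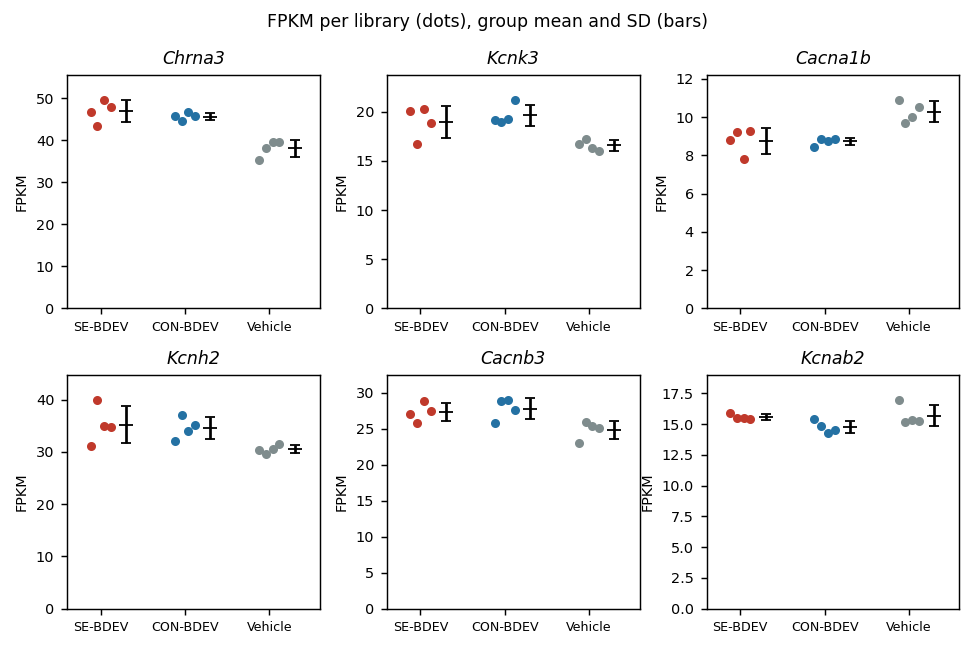
FPKM in each library (dots) with group mean and SD (black bars, n = 4), on axes that start at 0, for the 3 genes that passed the test (upper panels) and Kcnh2, Cacnb3 and Kcnab2 (lower panels). Chrna3 is higher and Cacna1b lower in every vesicle library than in every Vehicle library, while Kcnh2, Cacnb3 and Kcnab2 overlap between SE-BDEV and Vehicle.

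Promoter windows are shown for Chrna3 and Cacna1b, which with Kcnk3 were the genes that differed from Vehicle. They are RefSeq windows on GRCm38.p6, a later build than the mm9 of the expression tables, from 250 bases before to 50 bases after the gene's start, read 5′ to 3′ on the gene's strand. Capitals mark GC boxes (GGGCGG on either strand). The Chrna3 window is chr9:55026513-55026812 on the minus strand, and the Cacna1b window is chr2:24763103-24763402 on the minus strand.
Chrna3: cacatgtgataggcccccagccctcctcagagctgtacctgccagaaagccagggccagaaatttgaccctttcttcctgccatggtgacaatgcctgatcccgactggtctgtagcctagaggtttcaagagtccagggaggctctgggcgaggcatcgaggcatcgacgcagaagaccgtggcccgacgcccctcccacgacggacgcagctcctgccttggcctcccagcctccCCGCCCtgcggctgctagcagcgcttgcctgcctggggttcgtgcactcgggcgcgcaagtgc
Cacna1b: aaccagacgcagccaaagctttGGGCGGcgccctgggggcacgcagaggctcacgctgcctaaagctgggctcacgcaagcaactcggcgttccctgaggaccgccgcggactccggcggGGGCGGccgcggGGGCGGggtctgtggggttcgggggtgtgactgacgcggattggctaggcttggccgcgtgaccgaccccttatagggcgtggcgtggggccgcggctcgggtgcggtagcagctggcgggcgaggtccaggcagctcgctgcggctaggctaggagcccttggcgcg
The Chrna3 window held 1 GC box and the Cacna1b window 3, in a search in which 35.7% of 32851 windows of the same length held at least 1. Neither held the E-box CACGTG, which 7.15% of windows held.

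Among the other 16 tested genes whose libraries are given above, none passed the test in the main fit of any comparison. The log2 fold change against Vehicle lay between -0.08 and 0.20 for SE-BDEV and between -0.08 and 0.18 for CON-BDEV. Kcnh2 was at the upper end in both comparisons. Cacnb3 had an unadjusted p of 0.0202 for SE-BDEV and 0.00802 for CON-BDEV, with adjusted p of 0.234 and 0.11. Without CON-BDEV replicate 1, limma called Kcnh2 (adjusted p = 0.0174) and Cacnb3 (0.0397) for CON-BDEV against Vehicle. In the joint comparison it called Kcnh2 without SE-BDEV replicate 1 and Cacnb3 without CON-BDEV replicate 1. Among those of the 16 genes above 10 FPKM in Vehicle, the 95% interval against Vehicle that reached farthest from 0 was that of Cacng3 for SE-BDEV. It ran from -0.38 to 0.22 on the log2 scale. The SE-BDEV interval ran from 0.06 to 0.34 for Kcnh2 and from -0.09 to 0.20 for Cacng7.

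**Figure D5:**
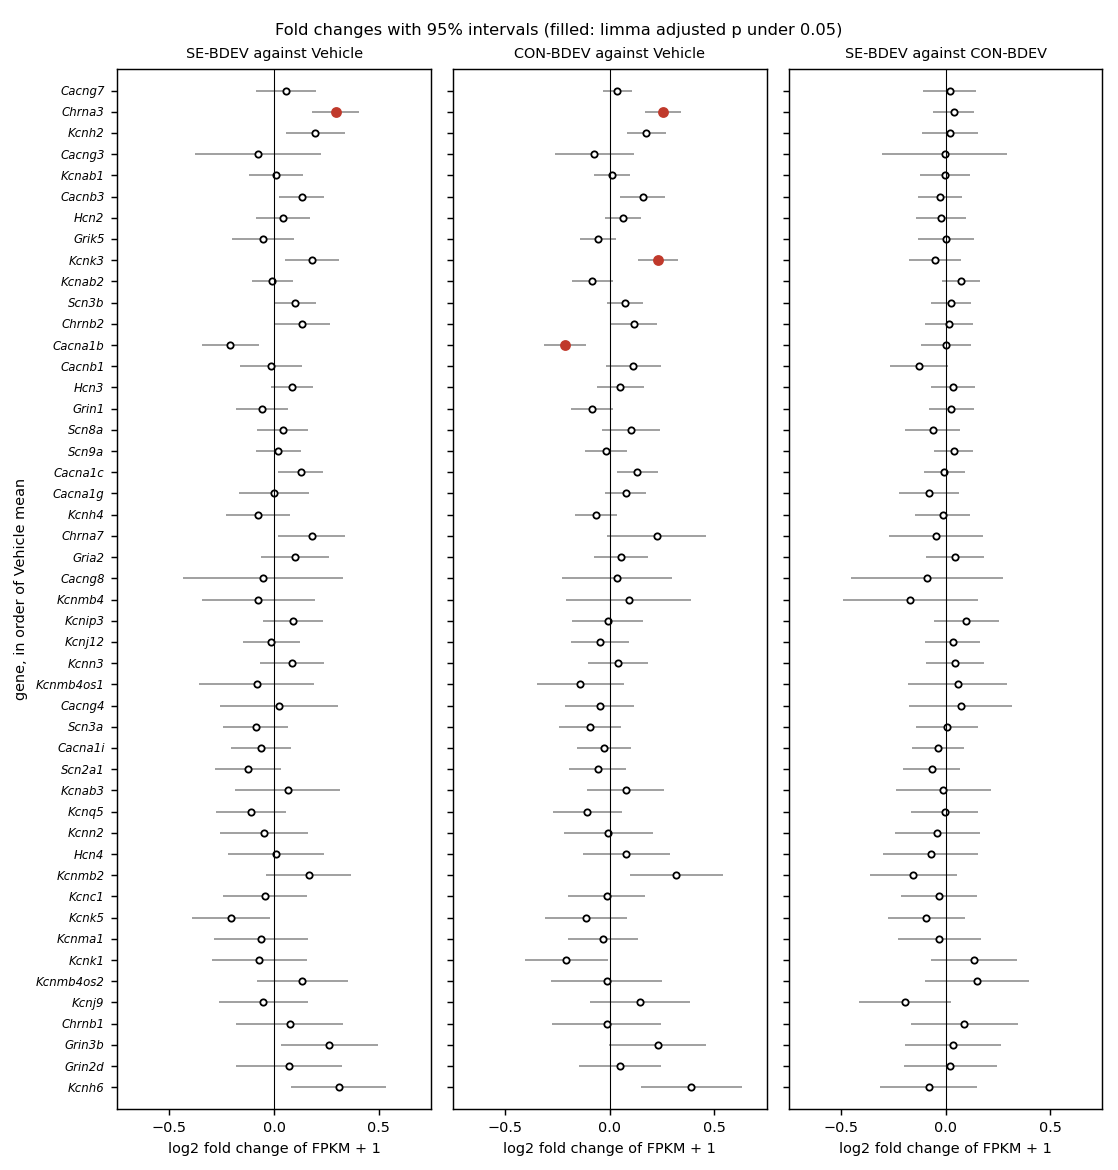
Log2 fold change of FPKM + 1 (dots) with its 95% interval (lines) for 48 of the 54 tested genes, in order of Vehicle mean down the page, in 3 panels for SE-BDEV against Vehicle, CON-BDEV against Vehicle and SE-BDEV against CON-BDEV. Filled dots passed an adjusted p of 0.05 by limma: Chrna3 in the first panel, Chrna3, Kcnk3 and Cacna1b in the second, and none in the third.

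The question in the title of the series, whether status epilepticus alters what brain vesicles do, is addressed by setting SE-BDEV against CON-BDEV in the fit of 12 libraries. By limma 0 of the 54 genes were called, as were 0% of all 11312 genes tested. At an unadjusted p under 0.05 there were 0 of the 54, against 296 (2.62%) of all genes. The smallest unadjusted p-values by limma were those of Cacnb1 (log2 fold change -0.13, unadjusted p = 0.0715), Kcnj9 (-0.19, unadjusted p = 0.0776) and Kcnab2 (0.07, unadjusted p = 0.0961), and after adjustment each was 1. A p above the threshold does not show that the groups were alike, so the intervals are given. The 95% interval lay within 0.5 of 0 on the log2 scale for all 54 genes and within 0.25 for 36 of them. The interval that reached farthest from 0 was that of Kcnmb4, from -0.49 to 0.16. The interval ran from -0.06 to 0.14 for Chrna3, from -0.17 to 0.07 for Kcnk3 and from -0.12 to 0.12 for Cacna1b.

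The 27 genes between 0.1 and 1 FPKM were fitted with a floor of 0.1 FPKM and a pseudocount of 0.1. None was called by limma in any comparison, while of all genes in that fit 0.627% were called for SE-BDEV against Vehicle, 2.04% for CON-BDEV against Vehicle, 0% for SE-BDEV against CON-BDEV and 2.27% for both against Vehicle. At an unadjusted p under 0.05 there were 0 of the 27 for SE-BDEV against Vehicle (13.3% of all genes), 2 for CON-BDEV against Vehicle (16.8%), 1 for SE-BDEV against CON-BDEV (2.88%) and 2 for both against Vehicle (16.7%). The genes at that unadjusted level, named after their values were seen, were Chrnb4 and Kcnk12. Chrnb4 had 0.275, 0.182, 0.363 and 0.410 FPKM in the 4 SE-BDEV libraries, 0.402, 0.453, 0.376 and 0.281 FPKM in the 4 CON-BDEV libraries, and 0.316, 0.189, 0.122 and 0.0737 FPKM in the 4 Vehicle libraries. It had a log2 fold change of 0.61 (adjusted p = 0.451) for SE-BDEV and 0.86 (adjusted p = 0.175) for CON-BDEV against Vehicle. Vehicle replicate 1 lay within the range of both vesicle groups. Chrna5, on the other side of Chrna3 in the cluster, had a log2 fold change of -0.04 for SE-BDEV and -0.08 for CON-BDEV against Vehicle. Kcnk12, a tandem pore domain gene, had 0.151, 0.193, 0.246 and 0.241 FPKM in SE-BDEV replicates 1 to 4, 0.516, 0.331, 0.342 and 0.347 FPKM in CON-BDEV replicates 1 to 4, and 0.288, 0.132, 0.134 and 0.141 FPKM in Vehicle replicates 1 to 4. All 4 CON-BDEV libraries were above every SE-BDEV and Vehicle library, while SE-BDEV and Vehicle overlapped. Its log2 fold change by limma was 0.20 (adjusted p = 0.803) for SE-BDEV and 0.84 (unadjusted p = 0.00757, adjusted p = 0.127) for CON-BDEV against Vehicle, and -0.65 (unadjusted p = 0.0179, adjusted p = 0.9996) for SE-BDEV against CON-BDEV.

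The authors' own test called 1 channel or receptor gene of 59 tested for SE-BDEV, Chrna3, and 5 of 60 tested for CON-BDEV, in the authors' deposited table. Those for CON-BDEV were Chrna3, Kcnk3, Cacna1b, Kcnh6 and Kcnmb2. That is 1.69% and 8.33% of the channel and receptor genes tested, while over all rows there were 140 significant genes (1.17% of those tested) for SE-BDEV and 215 (1.8%) for CON-BDEV in the authors' deposited table. Kcnh6 had 1.25, 1.41, 1.41 and 0.979 FPKM in the 4 SE-BDEV libraries, 1.53, 1.40, 1.01 and 1.65 FPKM in the 4 CON-BDEV libraries, and 0.664, 1.05, 0.741 and 0.848 FPKM in the 4 Vehicle libraries. The SE-BDEV and CON-BDEV libraries reached above most Vehicle libraries but overlapped them. The log2 fold change of Kcnh6 for CON-BDEV was 0.76 (q = 0.00505) in the authors' deposited table. By limma it was 0.39 (standard error 0.11, adjusted p = 0.0863). In the joint comparison limma gave Kcnh6 an adjusted p of 0.0566. There it called Kcnh6 without the mean-variance trend, without SE-BDEV replicate 4 and without CON-BDEV replicate 3, and under no other alternative. Kcnmb2 had 2.18, 1.79, 2.18 and 1.84 FPKM in SE-BDEV replicates 1 to 4, 2.40, 1.81, 2.53 and 2.63 FPKM in CON-BDEV replicates 1 to 4, and 1.46, 1.49996, 1.74 and 2.01 FPKM in Vehicle replicates 1 to 4, with overlap in both comparisons. For CON-BDEV its log2 fold change was 0.48 (q = 0.00882) in the authors' deposited table. By limma it was 0.32 (standard error 0.10, adjusted p = 0.121). For CON-BDEV against Vehicle limma called Kcnmb2 without CON-BDEV replicate 2, and under no other alternative.

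Genes outside the families that work with these channels (ion pumps, chloride channels and transporters, scaffolds and channel partners) numbered 53 in the tables, of which 36 were tested. Against Vehicle 0 rose and 1 fell for SE-BDEV and for CON-BDEV alike, 2.78% of those tested, against 0.919% of all tested genes for SE-BDEV and 2.84% for CON-BDEV. The gene was Clcn6, an endosomal chloride-proton exchanger, with a log2 fold change of -0.47 (adjusted p = 0.0178) for SE-BDEV and -0.40 (adjusted p = 0.0014) for CON-BDEV. In the joint comparison 2 more were called by limma, among them Unc79, a partner of the sodium leak channel (0.15, adjusted p = 0.048), which brings the share to 8.33%, against 3.37% of all tested genes. The list was chosen with earlier results of these data known, so its share cannot show an excess. Between SE-BDEV and CON-BDEV 0 of the 36 were called.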

How the data were processed

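RNA was sequenced from 12 N2a libraries in 3 groups of 4, named by their labels. Per the labels' protocols, polyadenylated RNA was put through a directional library kit. The authors deposited FPKM per gene and library, made with TopHat2 and Cuffdiff on mm9 per the submitters' processing notes. Which annotation, read filters and strand setting were used is not given in the sources used here, and overlapping genes are uncertain. Per the file headers, the authors' deposited comparison tables hold for each gene the log2 fold change, its p-value and its q-value. The Vehicle libraries stand in both FPKM tables, where their columns differed by a factor within 0.0336% of 1, so the tables were treated as 1 scale and the Vehicle value in fits of 12 libraries was the mean of both.

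Genes that averaged 1 FPKM or more in a fit entered limma 3.58.1 (R 4.3.3) as log2(FPKM + 1), with moderated two-sided tests and a mean-variance trend. Benjamini-Hochberg adjustment covered all genes tested, with a threshold of 0.05. Every adjusted p comes from limma, and q is the authors'. Each vesicle group was compared with Vehicle within its own table over 8 libraries. SE-BDEV against CON-BDEV, and the mean of both vesicle groups against Vehicle, came from 1 fit of 12 libraries. On data simulated from these libraries the test recovered, at a log2 change of 0.25, 44 of 100 changed genes for SE-BDEV against Vehicle, 55 of 99 for CON-BDEV against Vehicle, 64 of 100 for SE-BDEV against CON-BDEV and 70 of 100 for both against Vehicle. Unchanged genes called numbered 9, 5, 10 and 8 in that order. Each simulation also changed other genes by 0.5 and drew the noise of each gene independently, so recovery in the real data may be lower.

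Depth was estimated from the FPKM value of single fragments and the lengths of a later annotation (GENCODE M21), and is approximate. Estimates of fragments exist for 200 of the 206 genes. Promoter windows matched 152 of them. The genes and lists were chosen with earlier results of these data known. Values per library were given for genes called in a comparison, the 3 of smallest p in each, the 10 of highest Vehicle level and the highest of each family, 22 genes in all, with some genes of these lists not reported here by name and not drawn in the figures, although the fits and counts include them. Kcnh6, Kcnmb2, Chrnb4, Chrna5 and Kcnk12 were added after their values were seen. The alternatives tried were another pseudocount, other filters, median scaling, no trend, a replicate block, other samples in the fit and leaving out each library. Figures were drawn with matplotlib 3.10.9.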

Additional observations from a re-analysis of the deposited data

Results flagged for a closer look

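In 64 groups of 4 libraries of the genes given by library, 5 held 1 library farther from the other 3 than Dixon's 95% critical value allows, where chance alone marks about 1 group in 20. Grik5 was 24.5 FPKM in SE-BDEV replicate 3, against 19.4 to 19.9 FPKM in the other SE-BDEV libraries. Cacnb1 was 8.57 FPKM in that same library, against 9.998 to 10.2 FPKM in the others of its group. Kcnk3 was 21.2 FPKM in CON-BDEV replicate 4, against 18.9 to 19.3 FPKM. Kcnab2 was 17.0 FPKM in Vehicle replicate 1, against 15.2 to 15.4 FPKM, and Scn8a was 6.01 FPKM in Vehicle replicate 4, against 6.62 to 6.73 FPKM.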

How the results depend on the processing

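The number of channel and receptor genes called for SE-BDEV against Vehicle (1) was 0 without a filter on low values, 0 without the trend, and 0 to 2 when a library was left out. For CON-BDEV against Vehicle (3) it was 1 with a replicate block, 1 in the fit of 12 libraries, and 1 to 6 when a library was left out. For both vesicle groups against Vehicle (3) it was 1 without a filter and 1 to 4 when a library was left out. It was 0 for SE-BDEV against CON-BDEV under every alternative run. The causes were not tested. Whether the replicate numbers pair the samples was not settled. Same-number correlations of deviations ran from -0.12 to 0.30 between SE-BDEV and CON-BDEV, where 2 of 4 libraries of each group correlated best with their own number. Between either vesicle group and Vehicle they ran from -0.10 to 0.04, and 0 of 4 libraries did so. With the replicate block 1, 1, 0 and 2 genes were called for SE-BDEV against Vehicle, CON-BDEV against Vehicle, SE-BDEV against CON-BDEV and both against Vehicle. Under the block Kcnk3 (adjusted p = 0.0802) and Cacna1b (0.107) lost their calls for CON-BDEV against Vehicle, and Kcnk3 (0.0627) lost its call for both against Vehicle, by limma.

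Of 694 alternative values for 44 fold changes, 634 kept direction and side of the threshold, 40 lost the call, 3 gained it and 17 changed sign, all of these in genes not called. Without SE-BDEV replicates 2 and 3, an alternative chosen after seeing the data, SE-BDEV against Vehicle gave log2 fold changes of 0.045 for Cacnb1 and 0.0010 for Grin1. With a library left out, those for SE-BDEV against Vehicle ran from -0.00056 to 0.11 for Cacng7, -0.24 to 0.016 for Cacng3, -0.030 to 0.068 for Kcnab1, -0.012 to 0.081 for Hcn2, -0.023 to 0.027 for Kcnab2, -0.058 to 0.038 for Cacnb1 and -0.044 to 0.013 for Kcnj12. For CON-BDEV against Vehicle they ran from -0.15 to 0.015 for Cacng3 and -0.013 to 0.037 for Kcnab1. The 52 genes at 1 FPKM in Vehicle were 60 at 0.5 FPKM and 41 at 2 FPKM. Genes under 0.1 FPKM rest on a few fragments per library.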
